A study of Oryctolagus cuniculus with 4 samples.

Results

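Transcripts of 4 genes characteristic of fat cells were followed in the ligamentum flavum of rabbits: ADIPOQ (adiponectin), LEP (leptin), PPARG (peroxisome proliferator-activated receptor gamma) and LPL (lipoprotein lipase). The members were all probes whose transcript identifier on the array is a RefSeq transcript of 1 of these genes. All 4 genes had a probe, 1 each, so that they account for 4 of 43603 probes and 4 of 1489 genes that could be named. The ADIPOQ probe (transcript NM_001082222) was spotted 5 times on every array and those of LEP (NM_001163069), PPARG (NM_001082148) and LPL (NM_001177330) once. The genes were chosen with earlier results of these data known, so the values below are descriptions.

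The study asked how concentrated and relieved mechanical load alter gene expression in this ligament, which is rich in elastic fibres and joins neighbouring vertebral arches. Total RNA was taken from male rabbits 34 weeks old, at 16 weeks after an operation done at 18 weeks of age. In that operation the muscle over L3/4 was resected, and L2/3 and L4/5 were joined by posterolateral fusion with instruments. The 4 groups were the ISC level, which is the free L3/4 segment between the fusions where stress is concentrated, the control level of L3/4 (L3/4 control), both fused levels (L2/3, L4/5), and the control level of those segments (L2/3-L4/5 control). The strain of the rabbits, whether controls were operated on, and whether several animals or both fused levels were pooled in a sample could not be learned from the labels. At both operated levels the load and the surgery itself cannot be told apart.

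Each group was measured on 1 single-colour array, all on 1 slide, so no ratio has an error between animals and no test could be made. Signals were scaled to each array's 75th percentile, which is given the value 1, and a ratio is a difference of log2 scaled signals. The technical error given with a ratio combines the scanner software's own error for the spots of both arrays. On the 50 probes spotted several times the median SD over spots lay between 0.106 and 0.133 on the log2 scale. Where a transcript had 2 probes, their ratios lay a median of 0.31 apart for the ISC level and 0.25 for the fused levels, and in 10% of transcripts at least 1.04 and 0.84 apart. That probe-to-probe spread bears on all 4 genes, which rest on 1 probe each.

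White fat cells store triglyceride and secrete hormones. PPARG is the nuclear receptor that drives their differentiation and switches on many of their genes, those of adiponectin and lipoprotein lipase among them. LPL splits the triglycerides of circulating lipoproteins so that fatty acids can be taken up. Adiponectin and leptin are hormones of fat tissue, adiponectin raising insulin sensitivity and leptin reporting on fat stores to the brain. LPL is also made by muscle and macrophages, and PPARG by macrophages. Epidural fat lies against the inner face of the ligament and paraspinal muscle against its outer face.

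The arrays differed in genes of other cell types, from lists chosen with earlier results known. The 15 named skeletal muscle genes had a summed scaled signal of 961 in the L2/3-L4/5 control, against 17.97 at the fused levels, 31.2 at the ISC level and 41.6 in the L3/4 control. The 6 named neutrophil and marrow genes summed to 316 at the fused levels and to between 6.20 and 13.9 on the other arrays. Both named haemoglobin genes summed to 1152 at the fused levels, 780 in the L3/4 control, 434 at the ISC level and 272 in the L2/3-L4/5 control. Only 2 of 14 macrophage markers, CD14 and MSR1, and 3 of 9 endothelial markers could be named, and both lists also had their highest sum at the fused levels, 2.31 and 6.83. The endothelial sum there was nearly all VCAM1, at 6.60 by its brightest probe, an adhesion molecule of activated endothelium. Its 5 probes ran from 1.71 to 2.21 for the fused levels over the L2/3-L4/5 control. Over the L3/4 control they ran from −0.21 to 2.27, so no direction can be read against that control. SOX17 was highest in the L3/4 control, at 0.519 against 0.181 at the fused levels. KDR could not be detected well above background at the fused levels. The 9 named genes of ligament and matrix summed to between 586 and 811. COL1A2 and OGN carried most of each sum, with 222 and 309 at the fused levels, so the sum says little of the other genes. The tendon and ligament gene TNMD (tenomodulin) could be detected well above background on every array except that of the fused levels. Of the other 8 genes, 4 were past 2-fold downwards at the fused levels relative to the L2/3-L4/5 control and 0 upwards. Their median ratio was −0.87. Relative to the L3/4 control 2 were past 2-fold downwards and 0 upwards, with a median of −0.73. The part of these lists in the results below was not tested, and ratios are therefore also given against the other control. In bulk tissue, more cells of a type and more RNA per cell cannot be told apart.

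**Figure D1:**
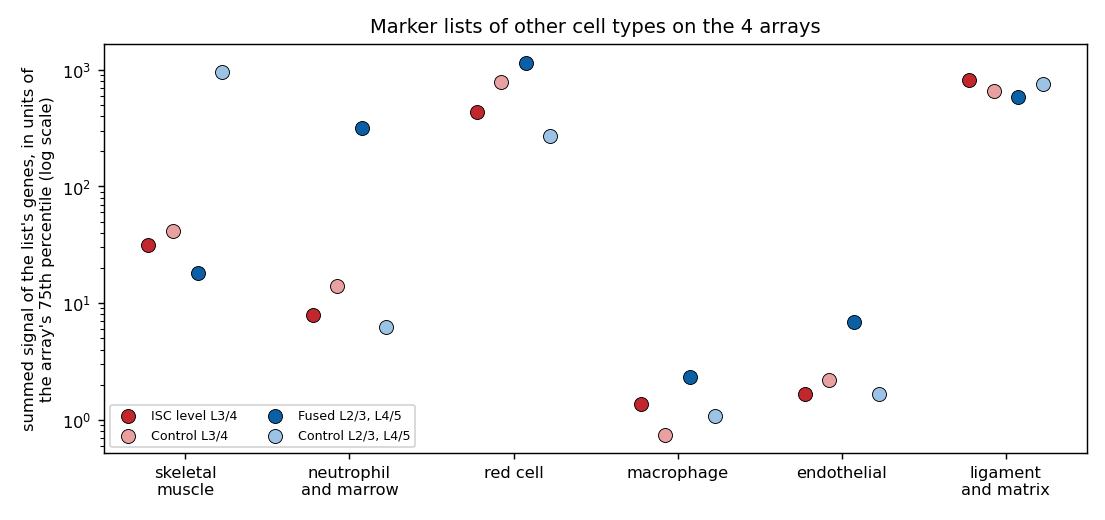
Summed scaled signal (log axis, in units of each array's 75th percentile) of the named genes of 6 marker lists, 1 point per array. The muscle list stands at 961 in the L2/3-L4/5 control and the neutrophil and marrow list at 316 at the fused levels, both far above the other arrays.

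All 4 fat-cell genes were well above background on all 4 arrays, and 3 of the 4 had their highest scaled signal at the fused levels. Over the 12741 features well above background on every array, where a feature is a named gene or an unnamed transcript or probe, the fused levels held the highest signal for 20.5%. PPARG was the exception, with its highest signal in the L3/4 control.

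ADIPOQ had scaled signals of 11.1 at the fused levels, 5.63 at the ISC level, 4.45 in the L2/3-L4/5 control, and 2.93 in the L3/4 control. The unscaled signals were 951, 527, 323 and 156 in that order. On the scaled log2 scale the 5 spots ranged from 3.40 to 3.58 at the fused levels, from 2.38 to 2.72 at the ISC level, from 2.05 to 2.30 in the L2/3-L4/5 control and from 1.35 to 1.75 in the L3/4 control. These ranges did not overlap between any of the arrays, although spots of 1 array share their RNA and say nothing of animals. For how many of the 50 probes spotted several times the same holds was not counted, so it cannot be called a trait of ADIPOQ. The closest neighbours, the ISC level at 2.49 and the L2/3-L4/5 control at 2.15, each had a technical error of 0.14.

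LPL varied most among the 4 genes. Its scaled signal was 7.01 at the fused levels, 1.61 at the ISC level, 1.198 in the L2/3-L4/5 control, and 0.300 in the L3/4 control, from unscaled signals of 598, 151, 87.0 and 16.0. From highest to lowest array the span was 4.55 on the log2 scale, or 23.4-fold. Its lower end is 1 dim spot, the 16.0 of the L3/4 control. Normexp background correction, chosen after the data were seen, shrinks ratios of dim spots. With it LPL was at 1.99 for the fused levels over the L2/3-L4/5 control and at −0.71 for the L3/4 control over the L2/3-L4/5 control. The span with normexp was not computed. A span at least as wide was seen in 133 of the 12741 features, and the median span was 0.89. The ISC level and the L2/3-L4/5 control differed by 0.43 with a technical error of 0.21, so these neighbours lie close together.

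LEP was dim on every array. Its scaled signal was 0.485 at the fused levels, 0.205 in the L2/3-L4/5 control, 0.203 at the ISC level and 0.197 in the L3/4 control. The fused levels stood alone, and the other 3 arrays differed by at most 0.054 on the log2 scale, less than the technical error of 0.18 to 0.23 of each value. Unscaled, LEP read 41.4 with an error of 4.40 at the fused levels and between 10.5 and 19.1 elsewhere.

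PPARG followed another order. Its scaled signal was 1.54 in the L3/4 control, 1.32 at the fused levels, 0.387 at the ISC level and 0.214 in the L2/3-L4/5 control, from unscaled signals of 82.4, 113, 36.3 and 15.5. The leading pair differed by 0.22 with a technical error of 0.21, which leaves their order unsettled. The 2 arrays on which PPARG was high, one operated and one control, were those with the higher haemoglobin sums, 780 and 1152 against 272 and 434. Whether blood or marrow content bears on PPARG was not tested.

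**Figure D2:**
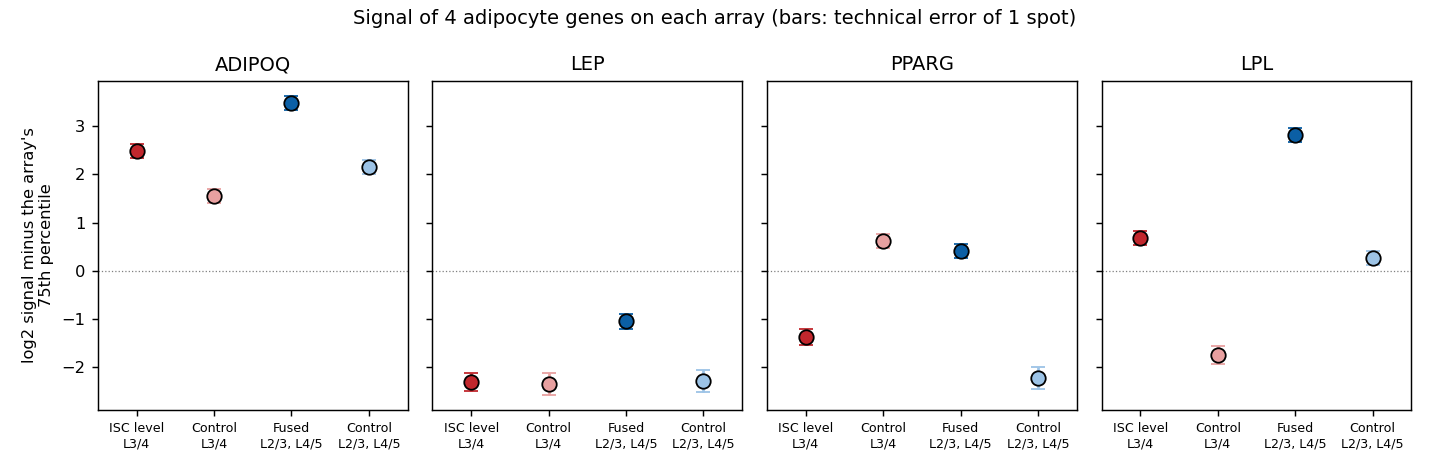
Scaled log2 signal (y axis, 0 is the array's 75th percentile) of each gene on the 4 arrays, with bars for the scanner software's error of a single spot. ADIPOQ, LEP and LPL are highest at the fused levels, and PPARG is high in the L3/4 control and at the fused levels; heights can be compared within a panel, not between genes.

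At the fused levels all 4 genes were at least 2-fold higher than in the L2/3-L4/5 control, and the median of the 4 ratios was 1.94 where that of all 13717 features measured on both arrays was −0.14. Of all these features 7.84% were at least 2-fold higher. PPARG was higher by 2.63 with a technical error of 0.27, LPL by 2.55 with one of 0.21, ADIPOQ by 1.32 with one of 0.20 and LEP by 1.24 with one of 0.27. Ratios as high as that of PPARG were found in 254 features (1.85%), as that of LPL in 265 (1.93%), as that of ADIPOQ in 698 (5.09%) and as that of LEP in 781 (5.69%). With normexp background correction, chosen after the data were seen, LEP at 0.34 and PPARG at 0.99 were under 2-fold, so that 2 of the 4 stayed past it. The ADIPOQ and LEP ratios as first given lie in the broad upper flank of the distribution, and those of PPARG and LPL further out.

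Set against the L3/4 control instead, the fused levels had LPL higher by 4.55, ADIPOQ by 1.93 and LEP by 1.30. PPARG was then at −0.22, about its technical error. In that comparison 11.2% of 13352 features were at least 2-fold higher. So 3 of 4 genes were at least 2-fold higher than both controls, while PPARG was higher than 1 control only. The share of all features at least 2-fold higher than both controls was not counted. With normexp LEP fell to 0.34 over the L2/3-L4/5 control, under 2-fold. Normexp ratios over the L3/4 control were not computed. The LPL ratio of 4.55 rests on a dim unscaled signal of 16.0 in that control. The 2 ratios of each gene share the array of the fused levels.

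The fused levels were also above the stressed level for every member. The ratios of the fused levels to the ISC level were 2.12 for LPL, 1.77 for PPARG, 1.25 for LEP and 0.99 for ADIPOQ, with technical errors of 0.20 to 0.24. At least 2-fold higher were 3 of the 4, with ADIPOQ just short, beside 7.76% of 14564 features. The median ratio of all these features was −0.05, and the share higher by any size was not counted. LEP and LPL were at least 2-fold higher at the fused levels than on each of the other arrays, as were 461 of 12741 features (3.62%).

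At the ISC level the 4 genes went different ways relative to the L3/4 control. LPL was higher by 2.43 with a technical error of 0.24, a ratio reached by 68 of 13729 features (0.495%). ADIPOQ was higher by 0.94 with an error of 0.20, just under 2-fold, and a ratio as high was found in 1379 features. LEP was at 0.04 with an error of 0.29, which gives no direction, and its sign turned with quantile normalization (−0.07) and with normexp background correction (−0.26). PPARG was at −1.996 with an error of 0.21, a ratio that only 175 features (1.27%) matched or fell below. With normexp the LPL ratio shrank to 1.01 and that of PPARG to −1.07, both only just past 2-fold. Thus 1 of the 4 was past 2-fold upwards, beside 9.08% of all features, and 1 downwards, beside 10.5%. The median over the 4 was 0.49 against −0.17 over all features.

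Scaling mattered for ADIPOQ here. Its ratio was 1.05 with quantile normalization and 1.07 with the authors' scaled values, both past 2-fold. The authors' scaling moved the median of all features from −0.17 to −0.04 and the share of 2-fold differences that were higher from 46.4% to 58.9%. Relative to the median of all features ADIPOQ was higher by 1.11, LPL by 2.59 and LEP by 0.21, and PPARG was at −1.83.

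None of the 4 genes at the ISC level was 2-fold apart from the L2/3-L4/5 control. PPARG was higher by 0.85 there, LPL by 0.43 and ADIPOQ by 0.34, and LEP was at −0.01. The share of features at least 2-fold apart in that comparison was 8.57% of 14114. PPARG thus had opposite signs against the controls, lower than one and higher than the other.

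**Figure D3:**
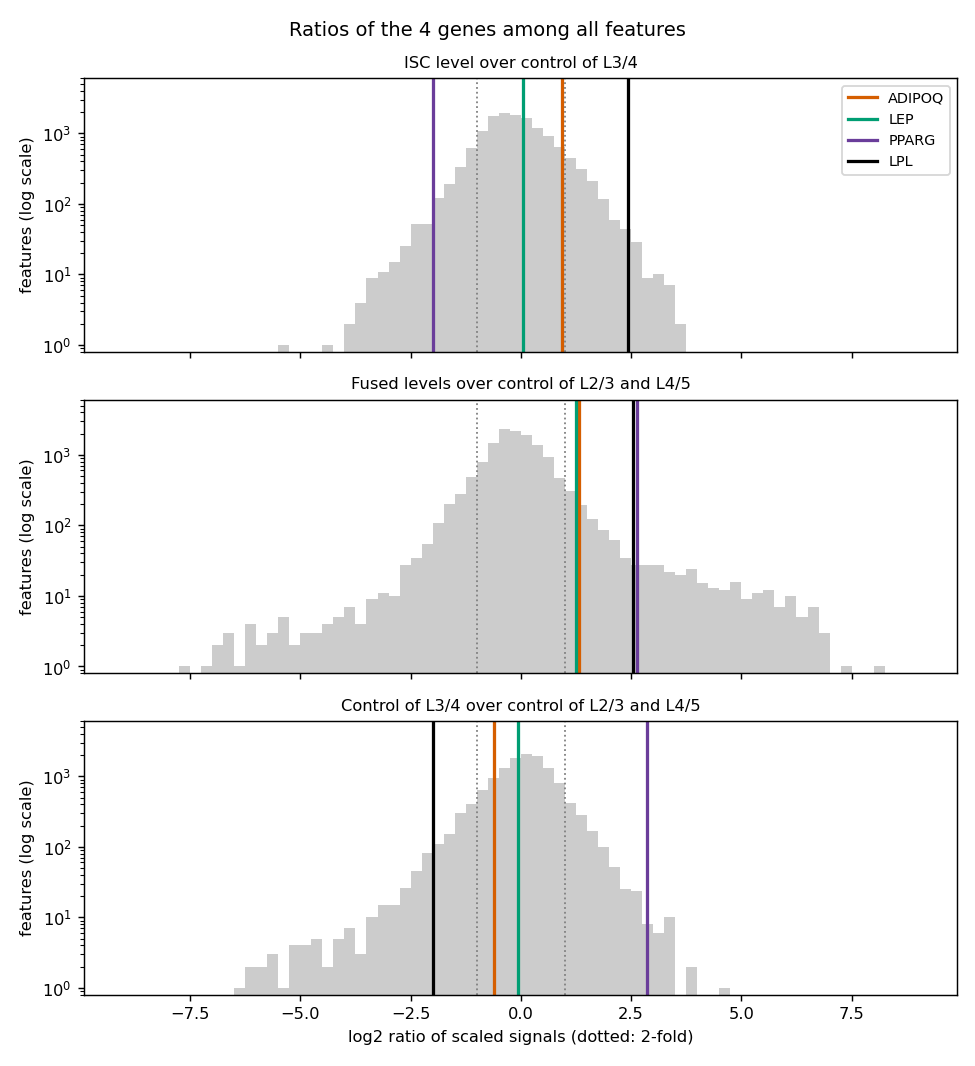
Histograms of log2 ratios (x axis) over all features well above background on both arrays (y axis, log scale) for the stressed, fused and control comparisons, with a coloured line for each gene and dotted lines at 2-fold. All 4 lines lie beyond 2-fold on the right for the fused levels, whereas PPARG lies left and LPL right for the ISC level and the reverse holds between the controls.

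The control arrays, which serve as background, differed from each other, among the 4 genes, mainly in PPARG and LPL. PPARG was higher by 2.85 in the L3/4 control than in the L2/3-L4/5 control, with a technical error of 0.27, a ratio reached by 23 of 13137 features (0.175%). LPL was at −1.998 with an error of 0.24, and 232 features (1.77%) were as low. ADIPOQ was at −0.60 with an error of 0.20 and LEP at −0.05 with an error of 0.32. Of all features 8.39% were past 2-fold upwards and 9.19% downwards between the controls. For PPARG and LPL the gap between controls was thus close in size to the ratios at the operated levels, which ran from 1.996 to 2.63 in size.

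**Figure D4:**
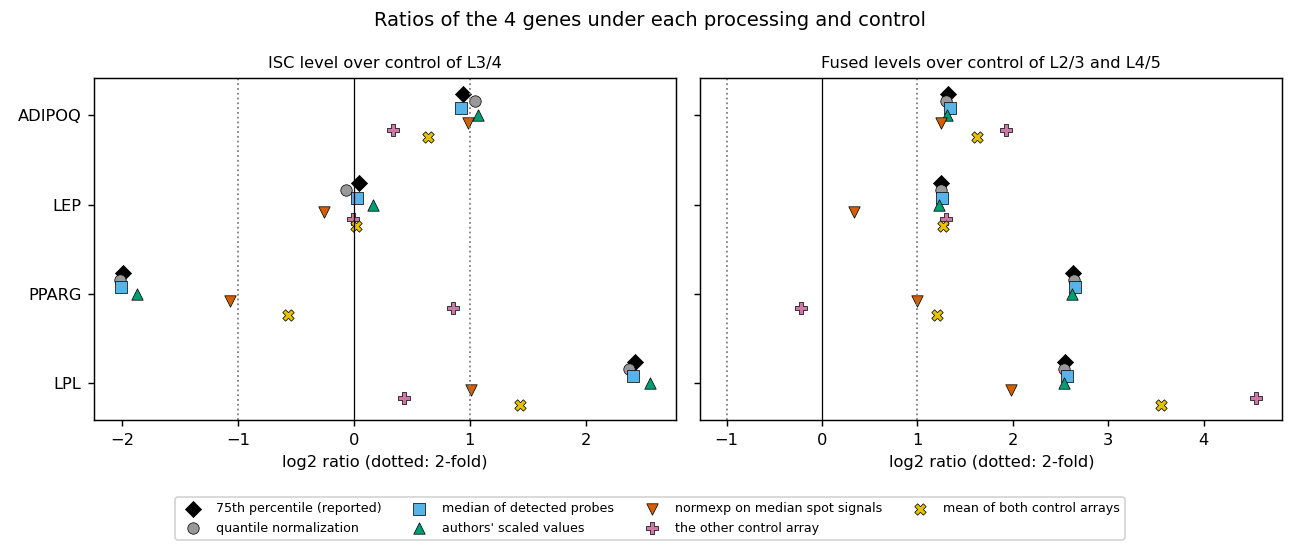
Log2 ratio (x axis) of each gene at the ISC level (left) and at the fused levels (right) as reported, under 4 other processings and against the other control or the mean of both controls. PPARG crosses 0 when the control is exchanged in both panels, while ADIPOQ, LEP and LPL stay right of 0 at the fused levels under every setting shown.

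Further genes of fat cells were taken from a list of 39, of which 8 could be named, the 4 members among them. The other 4 were SLC2A4, the insulin-regulated glucose transporter of fat and muscle, UCP1, the uncoupling protein of brown and beige fat, RBP4, a retinol carrier secreted by liver and fat, and CAV1, the caveolar protein abundant in fat cells, endothelium and fibroblasts. Of the 3 measured, 0 were at least 2-fold apart at the fused levels, beside 7.84% of all features higher and 9.15% lower. SLC2A4 was at −0.01, RBP4 at −0.17 and CAV1 at −0.34, a median of −0.17 where the whole list had 1.24. At the ISC level SLC2A4 was at −0.99, RBP4 at 0.23 and CAV1 at −0.29, and 0 of 3 were 2-fold apart, beside 9.08% of all features higher and 10.5% lower. Against the other control, the fused levels had SLC2A4 at 0.74, RBP4 at −0.35 and CAV1 at −0.38, again with 0 of 3 at least 2-fold apart. The ISC level then had RBP4 at 0.41, CAV1 at −0.26 and SLC2A4 at −1.75, so 1 of 3 was at least 2-fold lower, beside 5.03% of all features. These calls rest on the brightest probe. The 6 probes of SLC2A4 ran from −1.80 to −0.77 in the last comparison and from −0.01 to 1.01 for the fused levels over the L3/4 control. The 7 probes of CAV1 took both signs at the ISC level, from −0.71 to 0.59 against the L3/4 control. Against the L2/3-L4/5 control they ran from −0.71 to 0.10, so no direction can be read for CAV1 there. SLC2A4 had its highest scaled signals in the L2/3-L4/5 control, which held the muscle signal, at 0.818, and at the fused levels, at 0.812, with 0.485 in the L3/4 control and 0.244 at the ISC level.

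UCP1 could be detected well above background in 1 group alone, the fused levels, by 4 of its 5 probes, and by 0 of 5 on each other array. It was dim, with a scaled signal of 0.133 for its brightest probe. That made it at least 1.24-fold higher than the L2/3-L4/5 control and at least 1.18-fold higher than the L3/4 control, where such a bound uses the dimmest detected probe of the other array in place of the undetected signal.

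Partners of the 4 genes came from a list of 34, of which 6 could be named. ADIPOR1, a receptor for adiponectin, had scaled signals of 10.1 at the fused levels, 6.54 in the L3/4 control, 5.20 at the ISC level and 4.14 in the L2/3-L4/5 control. It was higher by 1.28 at the fused levels, with 4 probes from 0.69 to 1.40, and by 0.62 against the other control, with probes from −0.02 to 1.48, so no direction can be read against that control. At the ISC level it was at −0.33, with probes from −0.83 to 1.20, and again no direction can be read. Against the other control it was at 0.33, with probes from 0.05 to 0.59. PPARD, the delta form of the receptor, was at 0.12 at the fused levels and 0.09 at the ISC level, and at 0.98 and −0.77 in that order against the other control.

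VLDLR, a receptor that takes up lipoprotein particles and helps LPL to work on them, did not follow LPL on all arrays. It was higher by 2.20 at the ISC level, with probes from 1.83 to 2.25. At the fused levels it was at −1.02, with probes from −1.02 to −0.90, so not every probe passed 2-fold. Both signs turned against the other control, to −1.27 and 2.45, since the L3/4 control was at −3.47 relative to the L2/3-L4/5 control. Its scaled signal was lowest in the L3/4 control, at 0.5001, as was that of LPL, and highest in the L2/3-L4/5 control, at 5.55. APOE, a ligand of this receptor, was at −1.75 at the fused levels and did not stand well above background on either L3/4 array. The hepatic and endothelial lipase genes LIPC and LIPG, relatives of LPL, were not well above background on any array. In all, at the fused levels 1 of 4 measured partners was past 2-fold upwards, where 7.84% of all features were, and 2 downwards, where 9.15% were. Against the other control it was 1 of 3 upwards, beside 11.2% of all features, and 0 downwards, and the one upwards was VLDLR in place of ADIPOR1. At the ISC level 1 of 3 was past 2-fold upwards, beside 9.08%, and 0 downwards, beside 10.5%. Against the other control it was 0 upwards and 1 downwards, VLDLR in both cases, beside 5.03% of features downwards. These counts thus depend on the control.

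**Figure D5:**
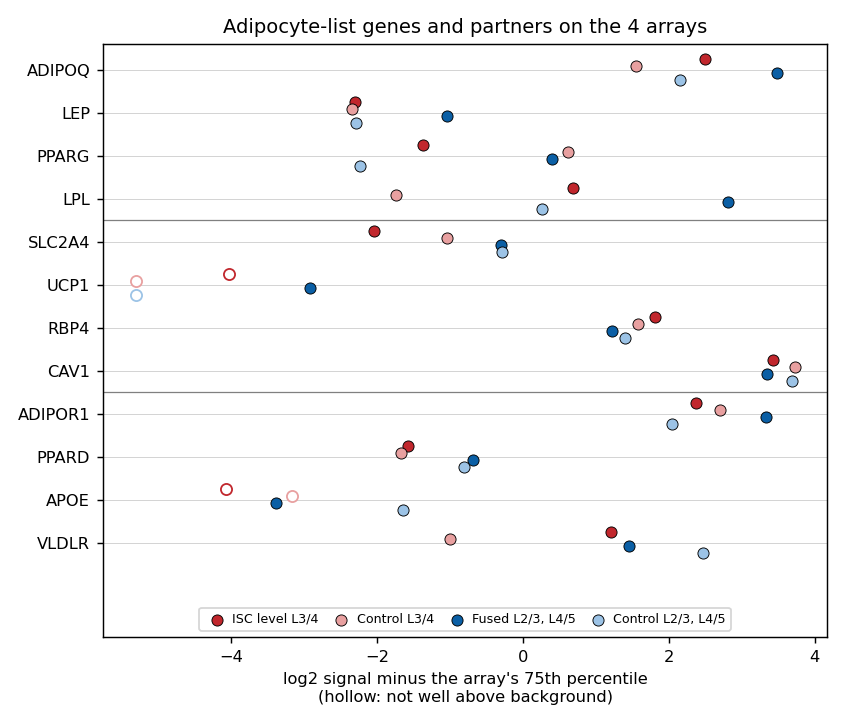
Scaled log2 signal (x axis) on the 4 arrays of the 4 genes (top), the other named genes of the fat-cell list (middle) and the partners (bottom), with hollow points where a gene was not well above background and small vertical offsets for legibility. RBP4 runs from 1.23 to 1.81 and CAV1 from 3.35 to 3.72 over the arrays. ADIPOQ, LEP, LPL, UCP1, ADIPOR1 and PPARD are highest at the fused levels. Each gene is shown by its brightest probe, and the probes of ADIPOR1 differ in sign over the L3/4 control. Points can be compared along a row only.

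Each gene's profile was set against the 885 other named genes well above background on all 4 arrays, by the root mean square distance of the 4 log2 signals after centring each gene on its mean. With 4 arrays such a distance is a description of these arrays. It is not scaled to a gene's span, so genes with the same order of arrays but different spans lie apart. Nearest to ADIPOQ were CD14 at 0.14, TACR2 at 0.14 and THBD at 0.16, and LEP was the 20th nearest at 0.33. Nearest to LEP were CXCR2 at 0.07, ATP1B2 at 0.07 and GET1 at 0.11. LPL, the member with the widest span, had no close neighbour by this distance. The nearest to it were APOD at 0.60, KCTD12 at 0.64 and IFNG at 0.66, with ADIPOQ the 13th nearest at 0.93. LPL was in place 567 of the 885 from ADIPOQ. Both genes nevertheless had the same order of arrays, with spans of 4.55 for LPL and 1.93 for ADIPOQ. From LEP, LPL was in place 823. Nearest to PPARG were EIF2AK1 at 0.30, PRKCB at 0.46 and MARCKSL1 at 0.48. From PPARG, LEP lay at 1.06, ADIPOQ at 1.32 and LPL at 2.03, in places 174, 551 and 855 of the 885.

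Among these neighbours CD14 and CXCR2 belong to the macrophage and the neutrophil and marrow lists. CD14, a receptor of monocytes and macrophages, had scaled signals of 2.06 at the fused levels, 1.15 at the ISC level, 0.987 in the L2/3-L4/5 control and 0.703 in the L3/4 control, which is the order of ADIPOQ and LPL. That order was held by 626 of 12741 features (4.91%). CXCR2, a chemokine receptor of neutrophils, had 1.73 at the fused levels and between 0.640 and 0.694 on the other arrays, like LEP high on that array only. It was picked for that likeness and is not typical of its list. Over the L2/3-L4/5 control the fused levels had CXCR2 at 1.32, the lowest of the 6 genes, whose median was 5.10. In the L3/4 control 4 of the 6 were at least 2-fold higher than in the L2/3-L4/5 control, beside 8.39% of all features, and CXCR2 was at −0.12. MSR1, a scavenger receptor of macrophages, was well above background at the fused and ISC levels and in neither control. Whether macrophages or marrow cells carry part of the signal of ADIPOQ, LEP, PPARG or LPL was not tested.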

How the data were processed

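Per the submitters' processing notes, Agilent Feature Extraction 12.0.3 read the spots. The deposited scanner values are linear spot intensities, background-subtracted and detrended within each array and not scaled between arrays, per the file headers. The authors' deposited value table holds the same intensity times 1 factor per array; how the factors were chosen is not given in the sources used here.

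Control spots and 3 to 7 outlier spots per array were left out, and no spot was saturated. Spots of a probe were averaged as log2, and each array's 75th percentile was subtracted (a signal between 53.4 in the L3/4 control and 93.7 at the ISC level). Between 59.6% and 67.9% of probes were well above background. RefSeq accessions gave names to 3792 probes (8.70%) through the gene table of RefSeq's assembly mOryCun1.1, from which no coordinates were taken. The brightest of several probes stands for a gene.

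No test was made, with 1 array per group; 2-fold is a fixed size, and precision is limited by the number of arrays. Members, lists and the rule for named genes (the members, all nameable genes of the lists, and the 3 nearest profiles per member) were chosen with earlier results of these data known. Alternatives were quantile normalization, other centrings, the authors' values, normexp (limma 3.58.1), the mean over probes, other filters and other controls. 1 gene of the partner list is not reported here and is left out of that list's counts. The counting was tested on simulated data.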

Additional observations from a re-analysis of the deposited data

Results flagged for a closer look

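Some genes were at least 2-fold apart from their own control in opposite directions at the operated levels, with 1 array on each side, and the difference was not tested. PPARG was at −1.996 for the ISC level and at 2.63 for the fused levels. The 3 genes with the profiles nearest to PPARG had been picked for that likeness: EIF2AK1 was at −1.75 and 1.84, PRKCB at −2.58 and 3.52, and MARCKSL1 at −1.43 and 1.41, for the ISC and the fused levels in that order. VLDLR went the other way, with 2.20 for the ISC level and −1.02 for the fused levels. Its probes at the fused levels ran from −1.02 to −0.90, so not every probe passed 2-fold. How many of all features moved in opposite directions in this way was not counted. The controls themselves lay apart in all 5 genes, with the L3/4 control higher by 2.85 for PPARG, 2.20 for EIF2AK1, 3.07 for PRKCB and 1.87 for MARCKSL1 and at −3.47 for VLDLR. With the controls exchanged, the ISC and the fused levels were at −1.27 and 2.45 for VLDLR, 0.85 and −0.22 for PPARG, 0.45 and −0.36 for EIF2AK1, 0.49 and 0.45 for PRKCB, and 0.44 and −0.46 for MARCKSL1.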

How the results depend on the processing

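No paired analysis was possible because each group has 1 array. Of 64 ratios of the 4 genes recomputed, 9 changed their side of 2-fold, 20 moved by more than the technical error and 3 of those turned sign, 2 of PPARG and 1 of LEP. In all 7 turned sign, the others being LEP ratios near 0. The mean over probes could change no member, each having 1 probe. Quantile normalization, centring on probes detected on all arrays and the authors' scaling moved none beyond that error, although ADIPOQ at the ISC level passed 2-fold with the first and the authors' scaling. Against the other control, PPARG turned to 0.85 at the ISC level and −0.22 at the fused levels, ADIPOQ was at 0.34 and 1.93, and LPL at 0.43 and 4.55. Against the mean of both controls, ADIPOQ was at 0.64 and 1.63, PPARG at −0.57 and 1.205, and LPL at 1.43 and 3.55. Normexp, chosen after the data were seen and run on median spot signals, adds an offset of 50 that shrinks ratios of dim spots. It gave LEP −0.26, PPARG −1.07 and LPL 1.01 at the ISC level, LEP 0.34, PPARG 0.99 and LPL 1.99 at the fused levels, and PPARG 1.15 and LPL −0.71 between controls. Features at least 2-fold apart numbered 2687, 2330 and 2309 for the ISC level, the fused levels and the controls. They numbered 523, 699 and 417 with normexp, 5897, 5169 and 5559 with no filter on dim probes, and 4656, 4033 and 4217 where 1 array above background sufficed. With normexp 66.3%, 61.9% and 32.9% of these were higher, against 46.4%, 46.1% and 47.7%. LEP, at unscaled signals of 10.5 to 41.4, is the member most limited by signal over background.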
